A study of Mus musculus with 2 samples.

Results

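Binding of REV-ERBα was examined at 3 genes that set the survival of T cells, Mcl1, Bcl2 and Bcl2l11, in mouse T helper 17 (Th17) cells, the CD4 T cells that make interleukin-17. The members are the peaks of a deposited chromatin immunoprecipitation sequencing (ChIP-seq) list whose midpoint lay in 1 of 3 windows in mm9 coordinates. They were selected on position, within windows that were chosen by looking at the listed peaks. The windows ran on chromosome 3 from 95430000 to 95500000 for Mcl1, on chromosome 1 from 108400000 to 108640000 for Bcl2, and on chromosome 2 from 127920000 to 128020000 for Bcl2l11. They held 16 of the 8884 listed peaks: 3 at Mcl1, 10 at Bcl2 and 3 at Bcl2l11, and no window was empty. The study set 1 sample precipitated with an antibody to REV-ERBα against 1 input DNA sample, both from wild-type Th17 cells differentiated in primary culture. The sources used here do not give the strain, sex or number of the animals. The ChIP library held 6390234 tags. With 1 ChIP sample no value below has a replicate check. Intervals are exact 95% intervals that cover counting error only, and for the same choice of windows no test was made.

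REV-ERBα belongs to the clock machinery: bound to DNA, this nuclear receptor recruits a corepressor complex and lowers transcription. It recognises the half-site AGGTCA behind a stretch rich in A and T, an element it shares with RORγt, the receptor that directs Th17 differentiation. The proteins encoded by the 3 genes meet in the mitochondrial pathway of apoptosis. BCL2 and MCL1 hold the cell death effectors BAX and BAK in check, and BIM, the product of Bcl2l11, is a BH3-only protein that binds and neutralises such guardians. The balance between BIM and its partners sets how long an activated T cell lives once cytokines are withdrawn.

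The DNA under the peaks is not shown, since no mm9 sequence was used. Start sites of the 3 genes were instead read from RefSeq promoters of the GRCm38.p6 assembly, 300 bases each, which gave 4 entries, 2 of them for Bcl2l11. Their coordinates belong to another build and say nothing of where the peaks lie relative to them. Neither AGGTCA nor the related half-site GGGTCA was found on either strand in the entries of Mcl1 and Bcl2. Both entries of Bcl2l11 lacked AGGTCA and held GGGTCA once. These are the stretches with that match, shown because they were the only half-site matches at the members' start sites, with the half-site in capitals (TGACCC is GGGTCA read on the other strand).
Bcl2l11, upstream start, chr2:128126047-128126076, plus strand: cccgcaggcactGGGTCAccagctggttgg
Bcl2l11, downstream start, chr2:128127423-128127452, plus strand: ccttcggctgccTGACCCgtaggcgccgcc
The match at the upstream start began at base 22 of the transcript, and that at the downstream start began 140 bases before it. Of all 32851 promoter entries, 16.3% held AGGTCA, 13.7% held GGGTCA and 27.5% held at least 1 of them, so a match is common. The search did not ask for the stretch rich in A and T before the half-site. The upstream Bcl2l11 entry was 71% G and C, and the downstream entry 74%, against a median of 52.7% over all promoter entries. Of all entries, 91.8% and 95.2% were lower than these.

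The strongest peak of the 3 windows lay at Mcl1, the gene of a short-lived guardian protein that T cells need throughout their life. At 95472929 to 95473235 on chromosome 3 the ChIP library had 45 tags (95% interval 32.8 to 60.2), or 70.4 in the authors' scale of 10000000 tags. Only 49 of the 8884 listed peaks (0.552%) had more, and it ranked 4 among the peaks of chromosome 3. The caller's score, a peak height for which at most 1 tag per bp counts, was 38, and 0.495% of all peaks scored higher. Input was listed at 0.5 scaled tags, the lowest value in the list, taken here to mean that no input tag was seen. The listed fold of 95.2 is therefore set by that lowest value. Against the 3 input tags that a count of 0 allows, the 45 tags would be 15.87-fold over input. The exact binomial interval, which also covers the error of the ChIP tags, puts the lower limit at 12.4-fold.

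The other peaks of the Mcl1 window formed a pair. The peak at 95452031 to 95452337 had 17 tags (9.90 to 27.2) and that at 95454551 to 95454857 had 21 tags (13 to 32.1), with 2520 bp between their midpoints. Both intervals lie below that of the strong peak, which stood 18.4 kb beyond the nearer of them. Each of the pair had 3.8 scaled input tags, or 4 input tags, which is not resolved from the 0 input tags of the strong peak, and the listed folds were 4.50 (1.47 to 18.4) and 5.55 (1.87 to 22.3). The authors kept peaks from 4-fold upward. Only 3.85% of the list had a lower fold than the first of the pair, and 15.4% had a lower fold than the second. Their scores were 13 and 22, and 45.6% and 10.5% of the list scored higher. The Mcl1 window thus held 1 peak near the top of the list and 2 with fewer tags and with folds in the lower part of the list.

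Bcl2, whose product keeps resting and memory lymphocytes alive, had the most peaks. Its 10 peaks were spread over 185 kb of the window, with 216 tags in all. From low to high coordinate they held 22, 28, 24, 13, 22, 31, 26, 22, 14 and 14 tags, a median of 22 against 15 in the whole list. Their scores, in the same order, were 21, 22, 18, 11, 19, 28, 24, 17, 13 and 11. The strongest, at 108509217 to 108509523, had 31 tags (21.1 to 44.0), and 4.92% of the list had more. The weakest, at 108482020 to 108482326, had 13 tags (6.92 to 22.2). These intervals overlap, whereas the interval of the strong peak at Mcl1 lay above those of the pair. The tag counts within the Bcl2 window were not tested against one another. At least 15 tags were found in 7 of the 10, and in 12 of the 16 members, where 51.3% of all listed peaks reached that number.

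The Bcl2 peaks were unevenly spaced, with the largest group near the middle of the window. A group of 4 began at 108503533 and ended at 108517546, with 5684, 4267 and 3756 bp between successive midpoints. It held 22, 31, 26 and 22 tags, or 101 of the 216 tags of the window. A pair with 6384 bp between midpoints lay toward lower coordinates, at 108457725 to 108458031 with 28 tags and at 108464109 to 108464415 with 24 tags. The remaining 4 peaks stood alone, at 108412181 with 22 tags, 108482020 with 13, 108543961 with 14 and 108597155 with 14. The last 53.2 kb before 108597155 held no listed peak, the longest stretch between neighbours in this window. Counted over the 3 windows, 9 of 16 members had another listed peak within 10 kb, against 33.7% of the list, and 5 belonged to a group of at least 4 such peaks, against 2.86%. Position was part of how the windows were drawn, so nothing is read from these shares.

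The listed folds over input at Bcl2 ran from 5.47 to 46.6. The peak at 108412181 to 108412487 had no input tag and a listed fold of 46.6, and the exact binomial interval puts its lower limit at 5.8-fold. The peak of 28 tags had 1 input tag and a fold of 29.6 (4.90 to 1211). The peak with the most tags, 31, had the most input of all members, 5.7 scaled tags or 6 input tags, and the lowest fold of the window, 5.47 (2.25 to 16). Its neighbour of 26 tags was at 6.88 (2.39 to 27.1), and the other end of the same group, at 108517240 to 108517546, was at 23.3 (3.76 to 961). With 0 to 6 input tags behind each peak, these folds rest on very few reads and their intervals overlap. The order of Bcl2 peaks by fold is not the order by tags.

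**Figure D1:**
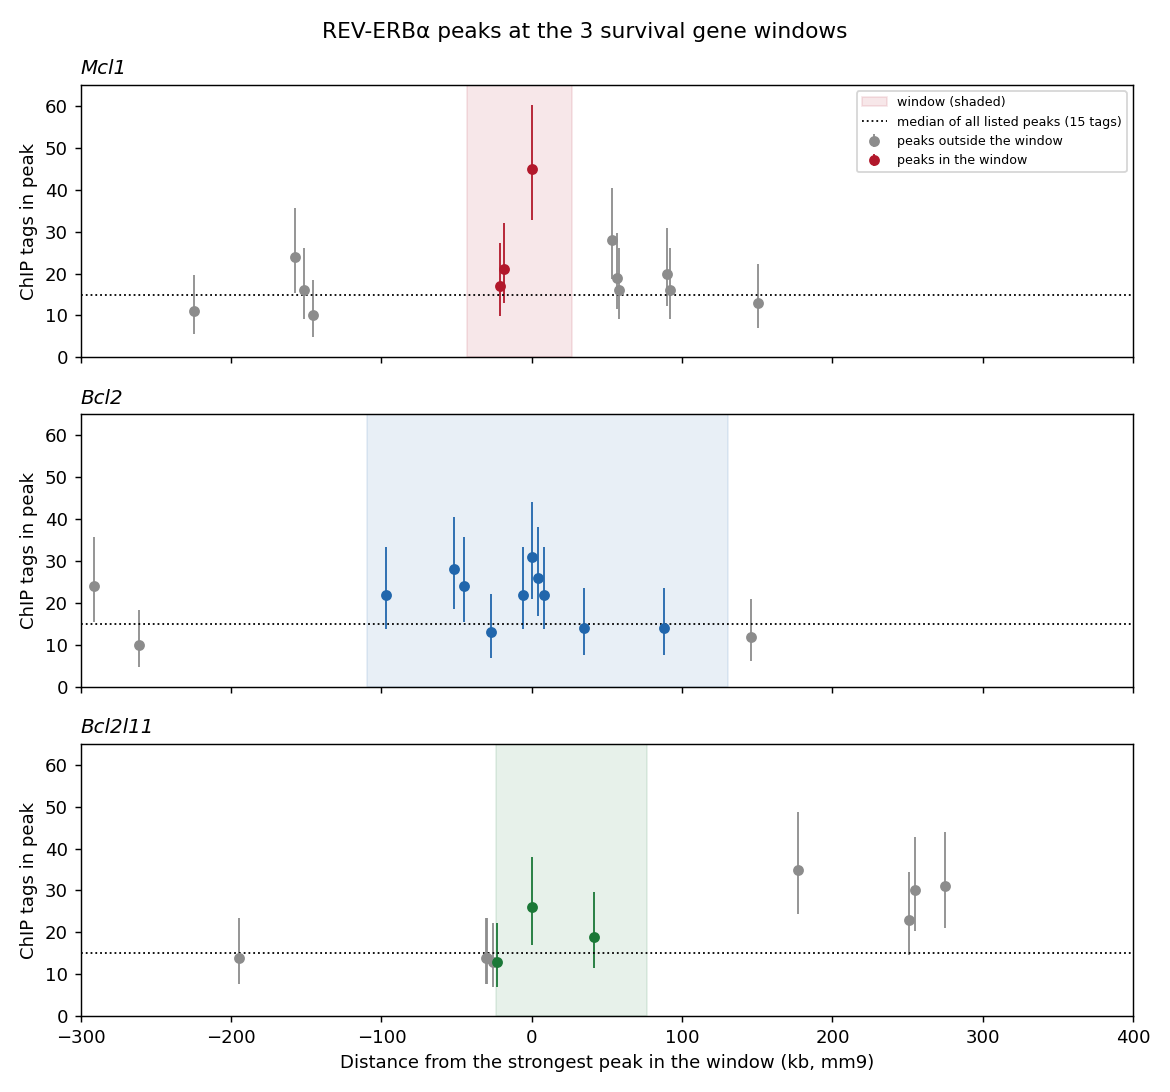
ChIP tags in each peak (vertical axis, with exact Poisson 95% intervals) against distance from the strongest peak of the window in kb, for Mcl1, Bcl2 and Bcl2l11 from top to bottom. Coloured points are peaks in the shaded window and grey points are the listed peaks up to 200 kb outside it. The peak of 45 tags at Mcl1 stands above its neighbours, the 10 peaks at Bcl2 lie between 13 and 31 tags, and the leftmost peak at Bcl2l11 sits on the window's edge beside 3 grey points.

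Bcl2l11, which encodes the death-promoting member of the trio, had 3 peaks with 58 tags in all. The highest, at 127943474 to 127943780 on chromosome 2, had 26 tags (17.0 to 38.1), and 10.02% of the list had more. The peak at 127984599 to 127984905 had 19 tags (11.4 to 29.7), 41.1 kb further on. The peak at 127920303 to 127920609 had 13 tags (6.92 to 22.2), below the list's median of 15. All 3 intervals overlap. The peaks were 6.88-fold (2.39 to 27.1), 6.70-fold (1.97 to 35.4) and 4.58-fold (1.26 to 25.1) over input, with 4, 3 and 3 input tags. Their scores were 25, 16 and 12.

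No Bcl2l11 peak reached 8-fold over input, where 1 of 3 did at Mcl1 and 6 of 10 at Bcl2. Of the whole list, 61.5% reached it, and of the 16 members 7. Input stood at the lowest value in 2 members, 1 at Mcl1 and 1 at Bcl2, against 16.8% of the list.

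**Figure D2:**
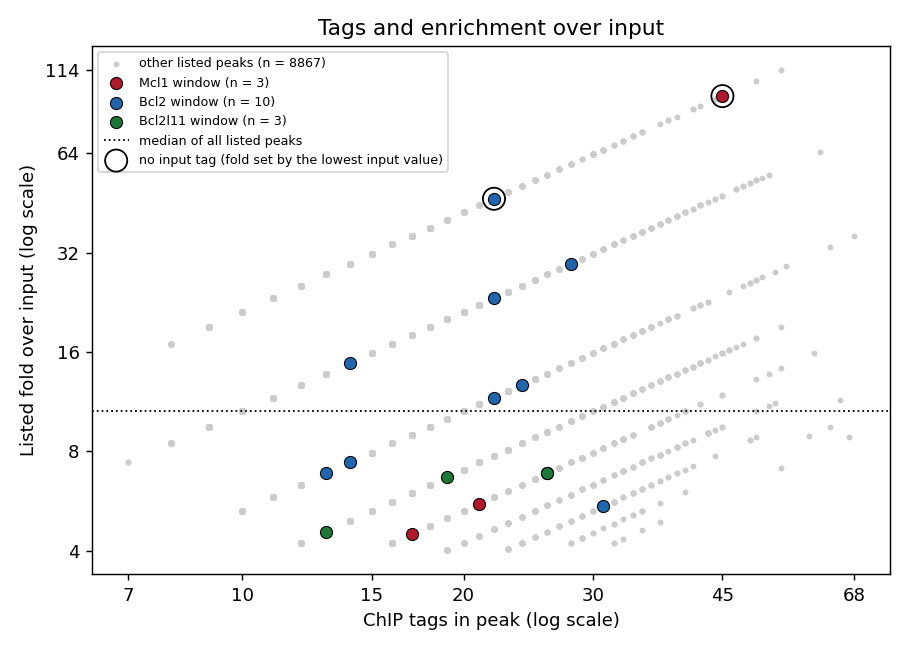
Listed fold over input against ChIP tags, both on log scales, for the 16 members (coloured by window) and the other listed peaks (grey, without the peak of 10556 tags). Each diagonal row of points shares 1 number of input tags, circles mark members with no input tag, and the dotted line is the list's median of 10.6. A Bcl2 peak and a Bcl2l11 peak of 26 tags coincide at 6.88, and all 3 Bcl2l11 peaks lie below the dotted line.

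The signal around each peak can be read from a further column. The caller also lists the fold of each peak over the surrounding 10000 bp of the ChIP library, and dividing tags by that fold gives the local level, in tags per 306 bp, the listed width of a peak. Its genome-wide expectation was 0.831 per the file header. At Mcl1 the local level was 4.17 and 4.04 around the pair and 6.31 around the peak of 45 tags, and 0.552% of all peaks had a level above the last. The nearest other listed peak was 18.4 kb away, so the 10000 bp around this peak held no other listed peak. At Bcl2 it ran from 1.58 to 5.46, highest around the 26 and 31 tag peaks of the group of 4. At Bcl2l11 it ran from 1.8 to 2.27, near the list's median of 1.93 and within the range of the Bcl2 peaks.

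A local level above the list's median was found around 3 of 3 Mcl1 peaks, 8 of 10 Bcl2 peaks and 1 of 3 Bcl2l11 peaks, against 49.9% of the list. Neighbouring peaks can enter each other's surroundings, as in the Mcl1 pair (2520 bp) and within the Bcl2 group of 4 (4267 and 3756 bp). This count can therefore in part restate their spacing. If the 10000 bp are centred on a peak, the Bcl2 gaps of 5684 and 6384 bp exceed their reach to either side. The neighbour limit of 10 kb used next is wider than that reach, so it also takes in peaks that do not share surroundings. Of the 9 members with another listed peak within 10 kb 8 were above the median, against 76.1% of such peaks in the list. Of the 7 members without one 4 were above it, against 36.6%: the Mcl1 peak of 45 tags, the Bcl2 peaks of 22 tags at 108412181 and of 13 tags at 108482020, and the Bcl2l11 peak of 19 tags. Taller peaks had higher levels over the whole list. Among the 2345 peaks of at least 20 tags the median was 2.59, and 9 of the 10 members of that height were above it, against 50% of those peaks. The exception was the Bcl2l11 peak of 26 tags, at 1.8. A listed peak must be at least 4-fold over its surroundings, so the local level cannot exceed its tags divided by 4.

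In terms of the listed local fold, the Bcl2l11 peak of 26 tags was the sharpest member at 14.5, and 8.37% of the list was higher. The peak of 17 tags at Mcl1 was the least sharp at 4.08, with 0.473% of the list lower. The Mcl1 peak of 45 tags had a local fold of 7.13, below the list's median of 7.78. Of the 16 members 13 were below that median, against 49.9% of the list, namely 3 of 3 at Mcl1, 9 of 10 at Bcl2 and 1 of 3 at Bcl2l11. The local fold is tags divided by the local level, so this count is not separate from that of the local level. Neighbouring peaks can enter it in the same way. The clonal ratio, which rises when tags pile up on the same positions, ran from 0.83 to 1.21 among the members, with a median of 0.97 against 0.98 in the list.

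**Figure D3:**
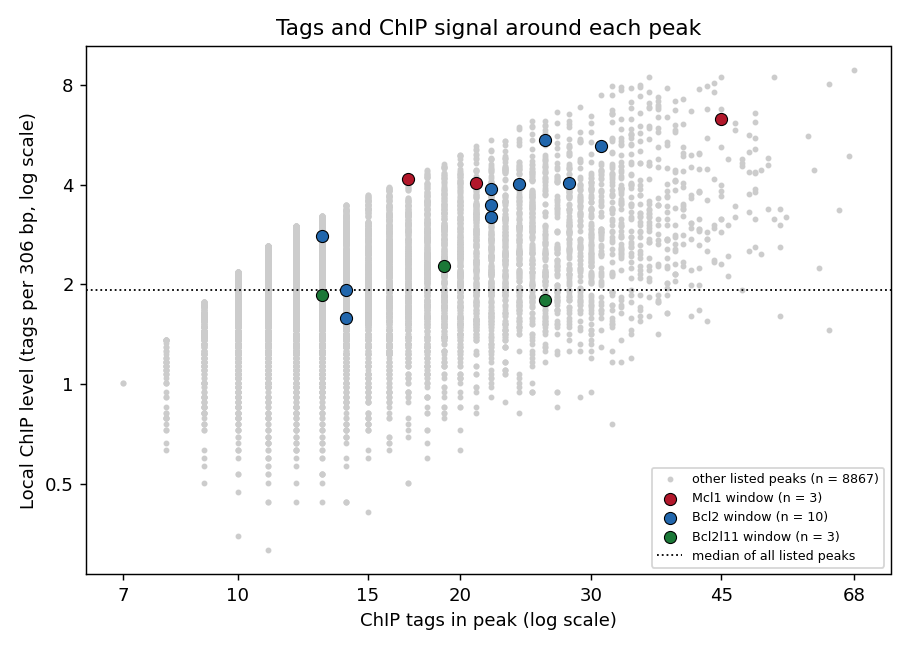
Local ChIP level around each peak (tags per 306 bp, log scale) against ChIP tags in the peak (log scale), for the 16 members and the other listed peaks (grey, without the peak of 10556 tags). The dotted line is the list's median of 1.93. Most Mcl1 and Bcl2 points lie in the upper part of the grey cloud, whose upper edge is the 4-fold limit, and the Bcl2l11 peak of 26 tags lies below the line.

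Per length of sequence, the windows held 4.29 peaks per 100 kb at Mcl1 (0.884 to 12.5), 4.17 at Bcl2 (2.0 to 7.66) and 3 at Bcl2l11 (0.619 to 8.77). These intervals overlap. The list as a whole had 0.350 peaks per 100 kb between the first and last peak of each chromosome. Cut into side-by-side stretches of 240 kb, 39 of 10569 (0.369%) held at least the 10 peaks of the Bcl2 window, and 67.96% held none. Of stretches of 70 kb, 2.19% held at least 3 peaks, and of stretches of 100 kb, 3.78% did. The windows were drawn around known peaks, so these shares describe them and are no test.

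**Figure D4:**
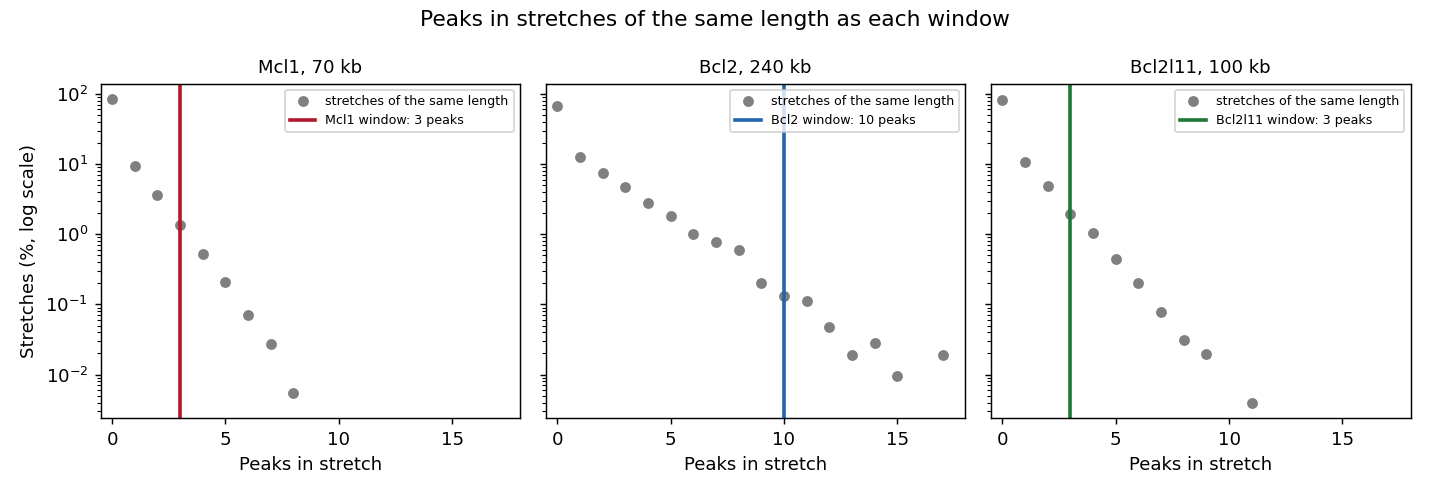
Share of side-by-side stretches of the genome (percent, log scale) by the number of listed peaks they hold, for the lengths of the Mcl1, Bcl2 and Bcl2l11 windows. Coloured lines mark the windows, at 3, 10 and 3 peaks; stretches with as many or more make up 2.19%, 0.369% and 3.78%.

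The windows end differently in their surroundings. Few peaks lay beyond the Bcl2 window: the 240 kb on the lower side held 2 peaks and the 240 kb on the upper side 1, of 12 tags, 15.3 kb beyond the end. At Mcl1 the 70 kb on the lower side held none, and the 70 kb on the upper side held 5 peaks with 99 tags, the nearest 26.5 kb beyond the end with 28 tags. At Bcl2l11 the limit cut through a group of 4 peaks. The peak of 13 tags lay 456 bp inside it, and peaks of 13, 14 and 14 tags lay 1.91, 5.96 and 6.98 kb outside, all within 7438 bp from first to last midpoint. The number at Bcl2l11 therefore depends on where the window was set to begin.

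The peaks were assigned to the 3 genes by window and not by distance to a start site or by placement in an exon or intron, since no mm9 annotation was used. In the RefSeq order of the GRCm38.p6 assembly the protein-coding neighbours are Ensa and Adamtsl4 for Mcl1, Phlpp1 and Kdsr for Bcl2, and Acoxl and Spdye4c for Bcl2l11, and a peak in a window may lie nearer to one of these. Other genes of the BCL2 family were not analysed here for the same reason. The series holds no expression data, and whether any peak reflects REV-ERBα itself or changes the output of a gene was not tested.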

How the data were processed

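ChIP-seq of REV-ERBα and of input DNA was made from 1 sample each. Per the submitters' processing notes, CASAVA 1.8.2, Bowtie and HOMER were used, with mm9 as the genome. How repeated reads were treated is not stated in them. The authors ran HOMER findPeaks on the ChIP tags against the input tags, per the file headers. It required a false discovery rate of 0.001 (threshold 9 tags), 4-fold enrichment and p of 1e-04 in the comparison with input and with the local 10000 bp, and a distance of 612 bp between peaks. Total tags are counts as deposited by the authors. The normalized tag count (scaled to 10000000) and the scaled input tags are signal values made by the authors. The deposited folds are linear ratios. The deposited p-values come from the caller and were not used here. The score is a value deposited from the caller and is not a count within the listed peak. It can exceed the total tags, as at the Mcl1 peak of 21 tags, which scored 22.

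Midpoints were placed in the 3 windows with Python 3.11.15 (pandas 2.3.3, numpy 2.4.6, scipy 1.17.1) and drawn with matplotlib 3.10.9. Input tags were recovered by dividing tags by fold, 1 input tag being worth 0.945 on the authors' scale. This gave whole tags within a relative 0.02 for all 7392 peaks whose input exceeded the lowest listed value. Tags have exact Poisson intervals, and folds intervals from the exact binomial split of ChIP and input tags. The local level is an own computation, not a deposited value. Window counting was checked on simulated peaks. All peaks in the windows are named, and the windows, genes and measures were chosen with earlier results of these data known. The alternatives were a stricter fold, stronger peaks, overlap in place of midpoint, and wider windows.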

Additional observations from a re-analysis of the deposited data

How the results depend on the processing

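Of 26 alternative values, 19 stayed within 1.5 times the number of peaks reported, or inside the counting interval of the reported median or density. For a median this was the interval of a single count of that size, which does not measure the spread of a median over peaks. These values are not independent, since the densities come from the same numbers of peaks and their intervals are wide. Under the 8-fold limit the numbers at Mcl1 and Bcl2 moved while the densities did not. Among the numbers of peaks alone, 7 stayed and 5 moved. A limit of 8-fold over input kept 1 of 3 peaks at Mcl1, with 45 tags as the median, 6 of 10 at Bcl2, and 0 at Bcl2l11, hence 0 peaks per 100 kb there and no median. Windows extended by 50 kb on each side held 6 peaks at Mcl1 and 6 at Bcl2l11, against 3 each, and 11 at Bcl2, against 10. Counting any overlap changed no number. Fewer peaks under a stricter fold, and more in a wider window, follow from these settings. No replicate could be left out with 1 ChIP sample. No paired analysis was possible because each group has 1 sample. The caller's threshold was 9 tags in a library of 6390234, so a gap between peaks can still hold weaker binding. The lowest score in the list was 9, and the lowest tag count was 7. With 0 to 6 input tags a peak the intervals of the members' folds overlap, and no pair of folds was tested for a difference.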

Other observations

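Further groups of peaks lay outside the windows of the death-promoting gene and of Mcl1. Beyond the upper end of the Bcl2l11 window, on chromosome 2, no peak was listed for 101 kb, and then 4 followed within 200 kb of the window. The first, at 128120804 to 128121110, had 35 tags (24.4 to 48.7) and was 37.0-fold over input with 1 input tag. The others, starting at 128194406, 128198101 and 128218001, had 23, 30 and 31 tags. Of these 4 peaks, 3 had more tags than the highest peak inside the window, 26, though the intervals overlap. On chromosome 3 beyond the upper end of the Mcl1 window, peaks starting at 95526362, 95529798 and 95530837 had 28, 19 and 16 tags. A pair starting at 95562565 and 95564708 had 20 and 16. Below the lower end, peaks starting at 95315711, 95321275 and 95327575 had 24, 16 and 10 tags, the nearest 102 kb outside. Which genes these peaks belong to was not tested.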
